A study of Rattus norvegicus with 6 samples.

Results

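The genes described here encode enzymes that remove superoxide and peroxides outside the peroxiredoxin and ferroptosis systems. They are the superoxide dismutase genes Sod1, Sod2 and Sod3, the catalase gene Cat, the glutathione peroxidase genes Gpx1, Gpx3, Gpx7 and Gpx8, and the methionine sulfoxide reductase gene Msra. These 9 genes were taken by symbol from a table of 37209 gene symbols, and all 9 passed the filter on low counts that left 13390 genes for testing. RNA was sequenced from primary wild-type bone marrow mesenchymal stem cells (BMSCs) of rat femur, stromal progenitors grown in medium with 10% fetal bovine serum to 80% confluence. The CSE group had 3% cigarette smoke extract for 6 h and the Control group had serum-free medium for 6 h, with 3 libraries in each. The labels do not say whether the extract was also given without serum, nor whether each library had its own animal or culture. The p-values therefore speak to the variation among these 6 libraries, which may be technical.

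Superoxide dismutases convert superoxide to hydrogen peroxide and oxygen. Sod1 encodes the copper-zinc enzyme of the cytosol, Sod2 the manganese enzyme of the mitochondrial matrix, and Sod3 a secreted copper-zinc enzyme that binds matrix polysaccharides. Catalase, in peroxisomes, splits hydrogen peroxide without a reductant, whereas glutathione peroxidases reduce peroxides at the expense of glutathione or protein thiols. Gpx1 (cytosol and mitochondria) and Gpx3 (secreted) encode selenoproteins. Gpx7 and Gpx8 encode peroxidases of the endoplasmic reticulum with cysteine in place of selenocysteine, and Msra encodes an enzyme that repairs oxidised methionine. In bone marrow stroma these enzymes are known for limiting oxidant damage to progenitors.

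The members did not move as one group. Cat, Sod1, Sod2 and Gpx7 rose with CSE, Gpx1 and Gpx8 fell, and Sod3, Gpx3 and Msra did not pass the test. Thus 6 of 9 genes passed, beside 73.9% of all tested genes, so the number of calls does not set these genes apart. Among all tested genes 36.3% were higher and 37.5% lower. In 6 of 9 genes every CSE library lay on one side of every Control library, against 75.8% of all tested genes (37.2% higher and 38.6% lower). Cat and Sod1 were at least 2-fold higher, a size reached upward by 10.7% of tested genes, and Gpx1 was at least 2-fold lower, a size reached downward by 14.4%. The median log2 fold change was 0.10 over the 9 genes and -0.02 over all tested genes. Levels below are counts per 1000000 counts of the TMM-scaled library size (normalized CPM), and each log2 fold change (CSE relative to Control) has its SE and the adjusted p of the quasi-likelihood test in edgeR. In bulk RNA, fewer cells of a type and less RNA per cell cannot be told apart.

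**Figure D1:**
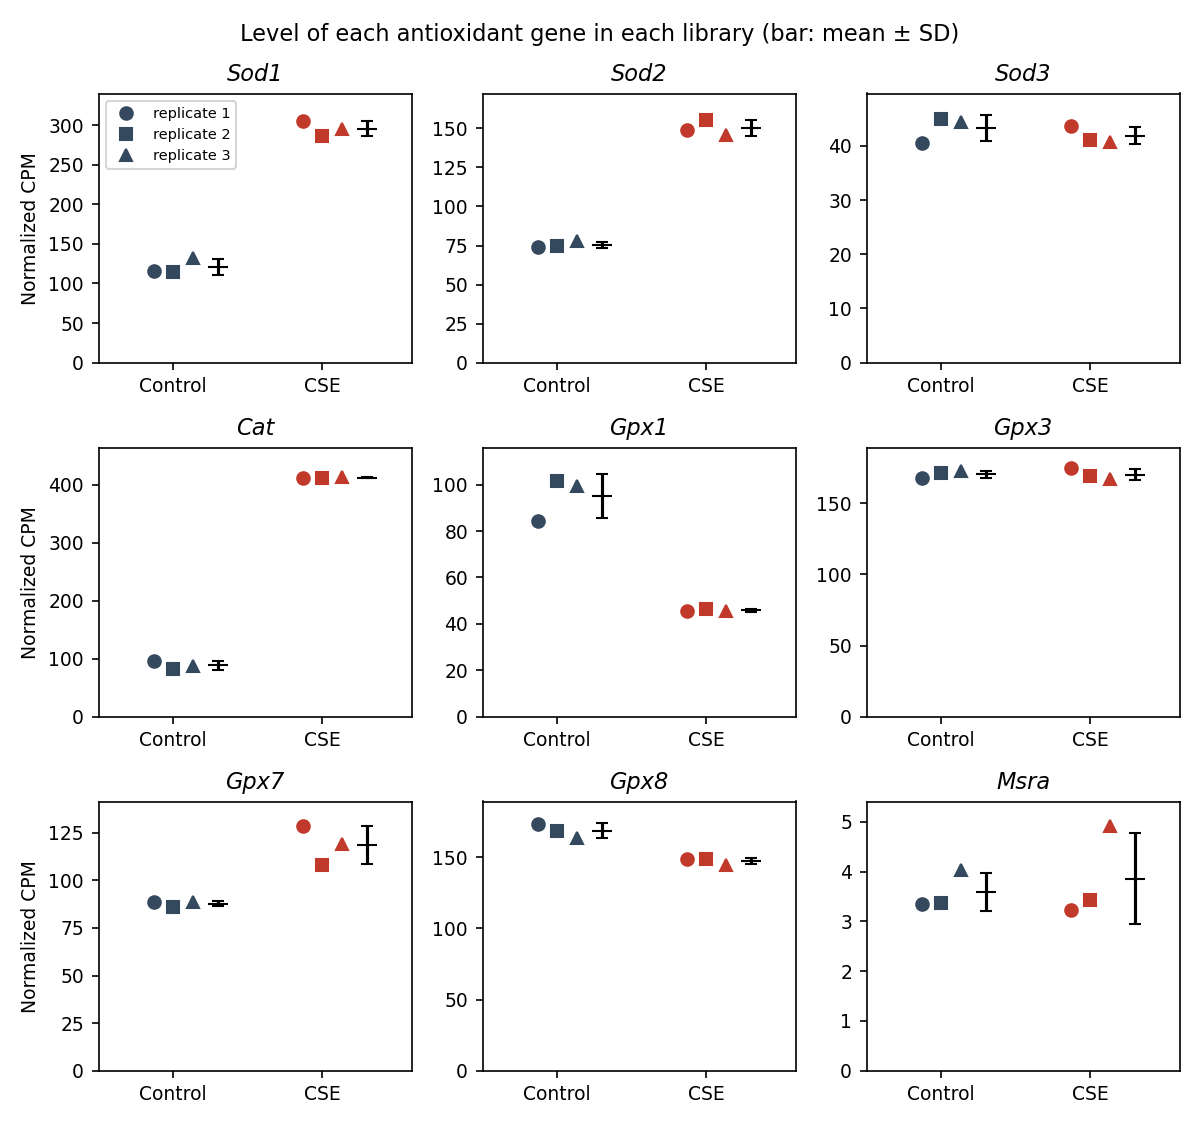
Normalized CPM (linear axis from 0) of each of the 9 antioxidant genes in the 3 Control libraries (dark) and the 3 CSE libraries (red), with symbols for replicate numbers and the mean ± SD at the right of each group. Cat, Sod1, Sod2 and Gpx7 lie higher in every CSE library, Gpx1 and Gpx8 lie lower, and Sod3, Gpx3 and Msra overlap.

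Library totals ranged from 19433637 to 22589327 counts with CSE and from 15958621 to 18651194 in the Control. The 9 genes together took 0.128% to 0.132% of counts with CSE and 0.0899% to 0.0924% in the Control. Of 18 mesenchymal stromal markers 17 had counts (all but Ly6al), and their summed level was 53028 to 54806 CPM with CSE and 53494 to 56158 CPM in the Control. Most of that sum came from Col1a1, Col3a1 and Vim, and marker by marker 5 of 17 were higher, 8 lower and 4 without a call. Cxcl12, a niche chemokine gene, was 4.49-fold lower, and Pdgfra (-0.97 ± 0.06), Pdgfrb (-0.87 ± 0.05), Prrx1 (-0.95 ± 0.05) and Mcam (-0.86 ± 0.06) were also lower, whereas Cd44 (1.09 ± 0.05) was higher. These markers were named after their values were seen. Transcripts of macrophages, which also express several of these enzymes, were present: 17 of 18 markers had counts (Cd163 was at 0), with summed levels of 1975 to 2041 CPM with CSE and 1839 to 1892 CPM in the Control. Lyz2, called higher, made up most of these sums, at 1414 CPM with CSE and 1175 CPM in the Control. Among the 17 macrophage markers with a test, 3 were higher, 6 lower and 8 not past the threshold. Summed markers of neutrophils stayed at or below 0.664 CPM and those of erythroid cells at or below 0.807 CPM in every library, with 4 of 11 neutrophil markers (Elane, Prtn3, S100a9 and Ltf) and 5 of 10 erythroid markers (Hba1, Hbb, Hbb-b1 and Gata1 among them) at 0. Adipocyte markers summed to 51.5 to 58.0 CPM with CSE and 80.1 to 91.0 CPM in the Control, with 9 of 10 detected (Pck1 was at 0). Fabp4 made up most of this, at 42.4 CPM with CSE and 70.7 CPM in the Control. For endothelial markers the sums were 40.8 to 44.3 CPM with CSE and 27.3 to 30.6 CPM in the Control. Counts were found for 9 of 11 (Emcn and Robo4 were at 0). Of the 5 endothelial markers with a test, 2 were higher, 2 lower and 1 without a call. Egfl7 (0.56 ± 0.09) and Flt4 (2.04 ± 0.13) were higher, and Tek (-0.87 ± 0.16) and Esam (-1.36 ± 0.38) were lower. Lyz2, Fabp4 and these 4 endothelial markers were named after their values were seen. Lymphocyte markers summed to 60.2 to 65.2 CPM with CSE and 4.27 to 4.95 CPM in the Control, almost all of it from Il7r. Among them 6 of 9 were at 0 (Cd3e, Cd3g, Cd79a, Ms4a1, Nkg7 and Gzma). The part of these shifts in stromal and other markers in the results below was not tested.

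The promoters of the 4 genes with the largest changes are shown because 3 of these genes rose and the other fell. Each sequence is the stretch of 250 bases that ends just before the RefSeq start site in rat build GRCr8, 5′ to 3′ on the strand of the gene, and capitals mark matches to the searched motifs on either strand. Of the 9 genes, 6 had an entry in the RefSeq promoter table. The stretches lie at chr3:110329527-110329776 (minus strand) for Cat, chr11:42942573-42942822 (plus strand) for Sod1, chr1:50050169-50050418 (minus strand) for Sod2 and chr8:117905212-117905461 (plus strand) for Gpx1.
Cat: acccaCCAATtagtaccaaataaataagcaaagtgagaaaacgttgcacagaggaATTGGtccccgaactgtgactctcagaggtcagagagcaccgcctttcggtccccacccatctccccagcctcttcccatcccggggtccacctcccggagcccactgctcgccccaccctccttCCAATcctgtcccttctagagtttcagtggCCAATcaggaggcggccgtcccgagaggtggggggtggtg
Sod1: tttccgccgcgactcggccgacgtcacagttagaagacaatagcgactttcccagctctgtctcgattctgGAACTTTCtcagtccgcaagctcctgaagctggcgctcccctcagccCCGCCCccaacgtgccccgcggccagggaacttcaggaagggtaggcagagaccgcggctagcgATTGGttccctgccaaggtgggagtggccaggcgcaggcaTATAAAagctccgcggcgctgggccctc
Sod2: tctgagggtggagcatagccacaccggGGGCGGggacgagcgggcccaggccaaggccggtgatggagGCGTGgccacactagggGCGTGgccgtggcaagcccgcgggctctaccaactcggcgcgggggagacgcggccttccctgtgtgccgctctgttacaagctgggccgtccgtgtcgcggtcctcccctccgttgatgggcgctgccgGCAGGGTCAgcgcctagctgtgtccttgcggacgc
Gpx1: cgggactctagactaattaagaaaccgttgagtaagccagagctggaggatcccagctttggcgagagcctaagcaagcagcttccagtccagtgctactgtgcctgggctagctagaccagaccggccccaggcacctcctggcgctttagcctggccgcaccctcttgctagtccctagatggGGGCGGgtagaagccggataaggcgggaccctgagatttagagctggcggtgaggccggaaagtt

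The motifs were searched on both strands of the 250 bases before the start site in 33469 promoters. The core of the antioxidant response element, TGACNNNGC, to which NRF2 with a small MAF protein binds, matched in Sod2 alone among the 6 genes, 35 bases before the start, and is held by 10.1% of all promoters. The heat shock element GAANNTTC matched in Sod1 alone, 179 bases before the start, and is held by 7.23% of promoters. The core GCGTG of the element bound by the aryl hydrocarbon receptor matched in Sod2, 182 and 165 bases before the start, as well as in Gpx3 and Gpx7, and is held by 25.9% of promoters. The SP1 motif GGGCGG matched in 5 of the 6 genes, all but Cat, beside 30.5% of promoters. The FOXO motif GTAAACA (3.21% of promoters) and the kappaB motif (1.3% of promoters) matched in none of the 6, which says only that these letters are not in these windows.

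The CCAAT and TATAAA motifs were chosen after the sequences had been seen. CCAAT, held by 34.0% of promoters, matched at 4 places in Cat, the nearest 40 bases before the start, and at 1 place in Sod1. TATAAA, held by 12.9% of promoters, matched in Sod1 alone, 28 bases before the start. No 2 motif matches in the printed sequences overlap. The Sod2 stretch had 26 CpG dinucleotides and 71.6% G or C, Sod1 21 and 63.2%, Gpx1 11 and 59.2%, and Cat 10 and 58.8%, beside medians of 5 and 51.2% over all promoters. A match is a description of the sequence and not a bound site, and RefSeq start sites in GRCr8 need not be the ones used in these cells.

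Sod1 and Sod2, the intracellular dismutase genes, rose, whereas the secreted form showed no call. Sod1 was at 305, 286 and 295 CPM in the CSE libraries and at 116, 114 and 133 CPM in the Control libraries. The lowest CSE library was more than double the highest Control library for Sod1. Its means were 295 ± 9.54 and 121 ± 10.1 CPM (SD, n = 3), a rise of 2.44-fold (log2 fold change 1.29 ± 0.06, edgeR adjusted p = 1.4e-12). Sod2 was at 149, 155 and 145 CPM with CSE and at 73.9, 74.8 and 77.6 CPM in the Control. The libraries of each group lay close together for Sod2, and the groups did not overlap. The RefSeq gene table also lists a related locus, Sod2-ps1, and Gpx8-ps1 for Gpx8, so values of Sod2 and Gpx8 carry the uncertainty of reads shared with a near copy. It averaged 150.1 ± 5.05 and 75.5 ± 1.96 CPM (SD, n = 3), a rise of 1.99-fold (log2 fold change 0.99 ± 0.05, edgeR adjusted p = 9.3e-12).

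Sod3 had 43.7, 41.1 and 40.8 CPM with CSE and 40.6, 45.0 and 44.3 CPM in the Control. The Control libraries held both the lowest and the highest value, so the groups overlapped. The log2 fold change of Sod3 was -0.05 ± 0.06 (edgeR adjusted p = 0.497), with a 95% interval for the fold of 0.881 to 1.06. That interval leaves out a change of the size seen in Sod1 or Sod2 in either direction. Under upper-quartile scaling and under total counts alone Sod3 was called lower, at -0.19 (edgeR adjusted p = 0.0151) and -0.24 (edgeR adjusted p = 0.0029). Over the 14 alternatives its adjusted p lay between 0.0029 and 0.822.

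Cat had the largest change of the 9 genes and stood 427th from the top of the 13390 tested genes by log2 fold change. It was at 411, 411 and 413 CPM in the CSE libraries and at 96.0, 82.0 and 86.7 CPM in the Control libraries. The CSE libraries were nearly equal for Cat, with a coefficient of variation of 0.275%, beside 8.09% in the Control. Cat averaged 412 ± 1.13 and 88.2 ± 7.14 CPM (SD, n = 3) and rose 4.67-fold, with a 95% interval of 4.31 to 5.07 (log2 fold change 2.22 ± 0.06, edgeR adjusted p = 7.0e-16). In the RefSeq gene table of GRCr8 the Cat locus overlaps a pseudogene, LOC134486130, whose reads were not separated from those of Cat by any value used here.

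Gpx1 moved the other way. It had 45.7, 46.5 and 45.4 CPM with CSE and 84.3, 101.7 and 99.2 CPM in the Control. Control replicate 1 was the lowest Control library for Gpx1, and it was still well above every CSE library. Gpx1 fell from 95.1 ± 9.40 to 45.9 ± 0.591 CPM (SD, n = 3), a fall of 2.08-fold (log2 fold change -1.05 ± 0.07, edgeR adjusted p = 2.0e-10), and stood 1827th from the bottom of the tested genes. Without Control replicate 1 and in every other alternative it was called lower, with log2 fold changes between -1.24 and -1.01.

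Gpx3, the gene of the secreted selenoprotein form, was at 175, 169 and 167 CPM with CSE and at 168, 171 and 173 CPM in the Control. The CSE libraries spanned the range of the Control libraries. Its log2 fold change was -0.002 ± 0.05 (edgeR adjusted p = 0.974), with a 95% interval for the fold of 0.934 to 1.07. As with Sod3, Gpx3 was called lower under upper-quartile scaling, at -0.14 (edgeR adjusted p = 0.0122), and under total counts alone, at -0.19 (edgeR adjusted p = 0.0012). Over the 14 alternatives its adjusted p lay between 0.0012 and 0.975.

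The peroxidase genes of the endoplasmic reticulum moved in opposite directions and by less than Cat, Sod1 or Gpx1. Gpx7 was at 129, 108 and 119 CPM with CSE and at 88.4, 86.1 and 88.6 CPM in the Control. The CSE libraries were spread more widely for Gpx7, yet each was above all Control libraries. Gpx7 rose 1.35-fold, from 87.7 ± 1.41 to 118.7 ± 10.2 CPM (SD, n = 3, log2 fold change 0.44 ± 0.06, edgeR adjusted p = 3.6e-06). Gpx8 was at 149, 149 and 145 CPM with CSE and at 174, 169 and 164 CPM in the Control. The gap between the groups was small for Gpx8, but they did not overlap. Gpx8 fell from 168.8 ± 4.95 to 147 ± 2.23 CPM (SD, n = 3, log2 fold change -0.20 ± 0.05, edgeR adjusted p = 0.0011). In the RefSeq gene table the Gpx7 locus overlaps Tut4, which the count table names Zcchc11. No source used here gives the strand setting of the counting, so reads in the overlap cannot be told apart. Zcchc11 moved the other way from Gpx7, at 17.0 CPM with CSE and 26.0 CPM in the Control (log2 fold change -0.61 ± 0.09, edgeR adjusted p = 4.7e-06).

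Msra was the member with the fewest reads, 57 to 95 counts per library. It was at 3.23, 3.44 and 4.91 CPM with CSE and at 3.36, 3.37 and 4.04 CPM in the Control. The third CSE library was the highest and the first CSE library the lowest, so the groups overlapped. The log2 fold change of Msra was 0.10 ± 0.20 (edgeR adjusted p = 0.666). Its 95% interval for the fold, 0.8002 to 1.43, is the widest of the 9 genes on the log2 scale. The sign of Msra turned under upper-quartile scaling (-0.04), under total counts alone (-0.09) and without CSE replicate 3 (-0.11), with no call in any of them. The Msra locus overlaps Prss52 and a long noncoding RNA in the RefSeq gene table.

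**Figure D2:**
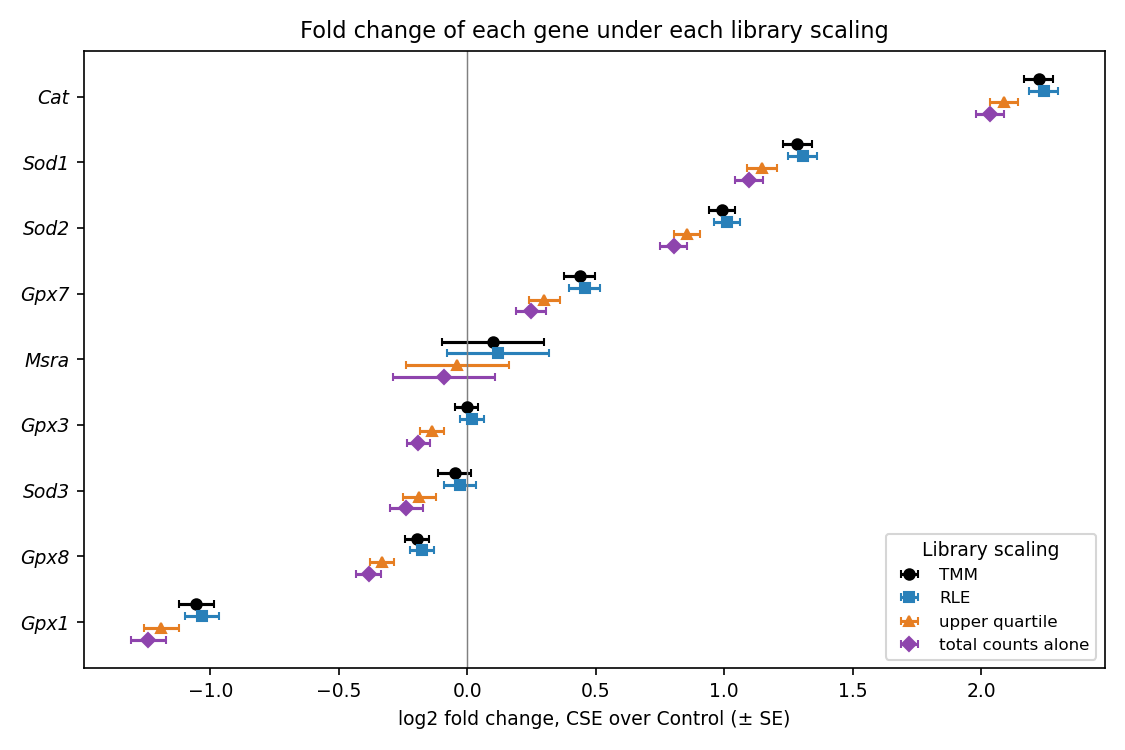
Log2 fold change of CSE over Control (± SE) of each gene under TMM, RLE and upper-quartile scaling and under total counts alone. Cat, Sod1, Sod2 and Gpx7 stay above 0 and Gpx1 and Gpx8 below 0 under all 4 scalings, while Msra and Gpx3 cross 0 and Sod3 moves to -0.24 under total counts alone.

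How libraries are scaled bears on the small changes. Upper-quartile scaling moved the median log2 fold change of all tested genes by -0.14 and total counts alone by -0.19, relative to TMM. Of the called genes 49.2% were higher with TMM, 40.3% with upper-quartile scaling and 37.2% with total counts alone. The plot of fold changes under each scaling shows the same shift in all 9 genes. The shift is smaller than the changes of Cat, Sod1, Sod2, Gpx1 and Gpx7, close to that of Gpx8, and larger than those of Sod3, Gpx3 and Msra. For Gpx7 it is a sizeable part of the log2 fold change, which was 0.44 with TMM, 0.30 with upper-quartile scaling and 0.25 with total counts alone.

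Ratios of read counts within a library do not depend on scaling, and 5 such ratios were compared. The ratio of Cat to Gpx1 reads was 8.998, 8.85 and 9.11 with CSE and 1.14, 0.807 and 0.873 in the Control. Reads of these genes were thus about equal in number in the Control libraries, whereas Cat reads were several times more numerous in each CSE library. The difference in log2 ratio was 3.27, or 9.66-fold. The ratio of Gpx3 to Gpx1 reads was 3.83, 3.63 and 3.68 with CSE and 1.99, 1.68 and 1.74 in the Control. By the difference in mean log2 ratio, it was 2.06-fold higher with CSE than in the Control.

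Among the dismutases, the ratio of Sod3 to Sod1 reads was 0.143, 0.144 and 0.138 with CSE and 0.349, 0.393 and 0.334 in the Control, a difference of -1.34 in log2 ratio. Sod2 over Sod1 was 0.489, 0.544 and 0.492 with CSE and 0.636, 0.653 and 0.585 in the Control, a difference of -0.30. Both genes rose, and the ratio was lower in every CSE library. In the endoplasmic reticulum pair, Gpx7 over Gpx8 was 0.865, 0.728 and 0.823 with CSE and 0.509, 0.510 and 0.541 in the Control, a 1.55-fold difference. For each of the 5 ratios the groups did not overlap, and the exact 2-sided permutation test gave p = 0.1 (adjusted p = 0.1 over the 5), the smallest that 3 libraries against 3 allow. Gene length cancels in the comparison between groups but not in a ratio itself, so a ratio above 1 does not show more transcripts of the first gene.

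**Figure D3:**
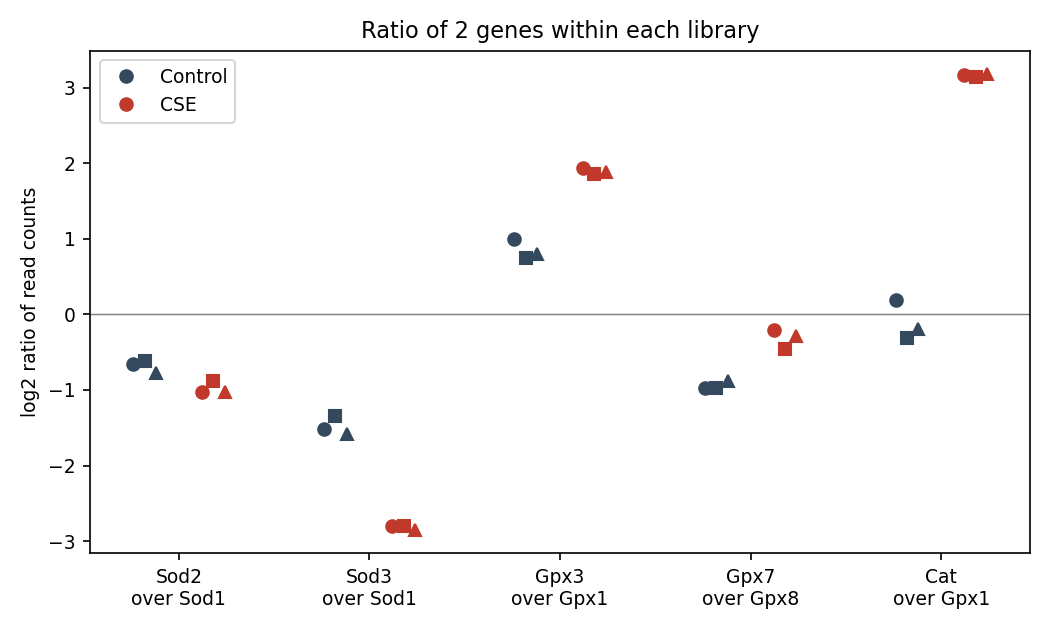
Log2 ratio of the read counts of 2 genes within each library, for 5 pairs, with Control libraries dark and CSE libraries red (symbols as replicate numbers 1 to 3). Cat over Gpx1 pairs the largest rise with the largest fall of the 9 genes, so it has to move furthest, by 3.27. Sod2 over Sod1 moves least, by -0.30, and no pair overlaps between the groups.

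The genes that supply the members with metal, selenium, electrons and a compartment are described next by the list, with counts of called genes and medians beside the same over all tested genes (36.3% higher, 37.5% lower, median log2 fold change -0.02). The range in brackets after a list's median is that of the same median over the 14 alternatives, some of which test more genes of the list. For the metals of the dismutases, the 11 tested copper supply genes split into 4 higher, 4 lower and 3 without a call (median -0.04, range -0.23 to 0.07). The copper importer gene Slc31a1 rose 1.38-fold from 62.8 ± 1.93 to 86.7 ± 1.98 CPM, whereas Slc31a2 (-0.74 ± 0.10), Steap4 (-1.85 ± 0.28) and Steap2 (-0.37 ± 0.06), the last of these encoding metalloreductases, fell. Ccs, the chaperone gene that loads copper into the Sod1 protein, was at 36.5 ± 3.21 CPM with CSE and 37.9 ± 2.60 CPM in the Control (log2 fold change -0.06 ± 0.08, edgeR adjusted p = 0.511). The 8 tested genes of manganese and mitochondrial iron supply held 5 that were higher, 1 lower and 2 without a call (median 0.43, range 0.24 to 0.46), with 2 lower under total counts alone or upper-quartile factors. The mitochondrial carrier genes Slc25a39 (0.66 ± 0.05) and Slc25a37 (1.18 ± 0.10) and the Golgi genes Tmem165 (0.75 ± 0.06) and Atp2c1 (0.44 ± 0.05) rose.

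Partners of Sod2 in the mitochondrion divided. The 14 tested genes comprised 5 higher, 4 lower and 5 without a call, and their median was 0.04 (range -0.15 to 0.07). The chaperone genes Hspd1 (1.46 ± 0.05) and Hspa9 (1.32 ± 0.04) and the protease gene Lonp1 (1.09 ± 0.05) rose. Idh2, which encodes an NADPH-forming isocitrate dehydrogenase of the matrix, fell from 97.7 ± 1.34 to 30.7 ± 2.94 CPM (log2 fold change -1.67 ± 0.06, edgeR adjusted p = 2.6e-13). Nnt, another NADPH source of the mitochondrion, was at -0.96 ± 0.05 and the mitochondrial thioredoxin reductase gene Txnrd2 at -1.27 ± 0.12, both called lower. The mitochondrial peroxiredoxin gene Prdx3 was at 0.03 ± 0.05 (edgeR adjusted p = 0.613). Nnt and Prdx3 were named after their values were seen.

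Around the secreted Sod3, the 10 tested heparin-binding and matrix partners included 1 gene that was higher, 5 that were lower and 4 without a call (median -0.09, range -0.28 to -0.07), with 8 lower under total counts alone, 3 lower without CSE replicate 1 and 2 lower without CSE replicate 2. Without Control replicate 1, 2 genes were higher. The proteoglycan gene Sdc3 was at -0.78 ± 0.05, Sdc1 at -0.18 ± 0.04 and the collagen gene Col1a1 at -0.14 ± 0.04, and the glypican gene Gpc1 rose to 763 ± 48.0 from 536 ± 10.0 CPM. The small falls of this list are of the size of the scaling shift.

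Most peroxisomal genes with a call moved the other way from Cat. The 15 tested genes of peroxisome biogenesis and import had 8 lower, 2 higher (Pex3 and Pex13, named after their values were seen) and 5 without a call. Their median was -0.32, which became -0.51 under total counts alone, -0.49 without CSE replicate 1, -0.14 with no filter on low counts and -0.11 in DESeq2. Under total counts alone 8 were lower and 0 higher in edgeR, and 1 was higher without CSE replicate 1 or 2 or Control replicate 2 or 3. Pex19 (-0.54 ± 0.09) and Pex2 (-0.58 ± 0.11), which act in membrane assembly and in recycling of the import receptor, fell. Pex5, the gene of the import receptor for most matrix enzymes, had 4.30 ± 1.31 CPM with CSE and 3.48 ± 0.480 CPM in the Control (log2 fold change 0.30 ± 0.21, edgeR adjusted p = 0.209). Genes of peroxisomal oxidases and beta oxidation, 19 tested, gave 11 lower, 2 higher and 6 without a call at a median of -0.47. Over the 25 genes of this list that were fitted with no filter on low counts the median was -0.13, and in DESeq2 it was -0.10. The alpha oxidation genes Hacl1 (-1.49 ± 0.11) and Phyh (-1.09 ± 0.10) fell. So did the transporter gene Abcd4 (-1.04 ± 0.07), which is counted in this list although its product is known from lysosomes and not from peroxisomes. The difference between Cat and these lists was not tested.

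Genes of selenium handling, which Gpx1 and Gpx3 need for their selenocysteine, moved in both directions. The 13 tested included 4 higher, 6 lower and 3 without a call (median -0.11). That median was -0.29, with 8 lower, under total counts alone, -0.24 under upper-quartile scaling, -0.02 without CSE replicate 2, -0.04 without Control replicate 1 and -0.18 without Control replicate 3. Sephs2, which makes the selenium donor, fell from 30.3 ± 1.90 to 11.01 ± 2.37 CPM (log2 fold change -1.45 ± 0.11, edgeR adjusted p = 3.4e-09). Secisbp2, whose product binds the selenocysteine insertion element, was at -0.39 ± 0.09 (edgeR adjusted p = 6.9e-04), and its relative Secisbp2l at 0.95 ± 0.05. Pstk, which prepares the selenocysteine transfer RNA and is named after its values were seen, was at -1.15 ± 0.19 (edgeR adjusted p = 2.7e-05). Lrp8, a receptor gene for selenoprotein P, rose 6.70-fold from 29.2 ± 1.54 to 195.7 ± 9.18 CPM. The nuclear export gene Xpo1 was at 0.91 ± 0.05.

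Other selenoprotein genes also moved in both directions. The 14 tested included 6 higher, 5 lower and 3 without a call, and their median was 0.02 (range -0.17 to 0.11). The cytosolic thioredoxin reductase gene Txnrd1 rose 5.55-fold to 1385 ± 33.5 CPM, Txnrd3 was at 1.64 ± 0.16 and Selk, a gene of the endoplasmic reticulum membrane, at 0.99 ± 0.06. Gpx4, the lipid hydroperoxidase gene, was at 111 ± 4.04 CPM with CSE and 104.6 ± 7.84 CPM in the Control (edgeR adjusted p = 0.195).

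**Figure D4:**
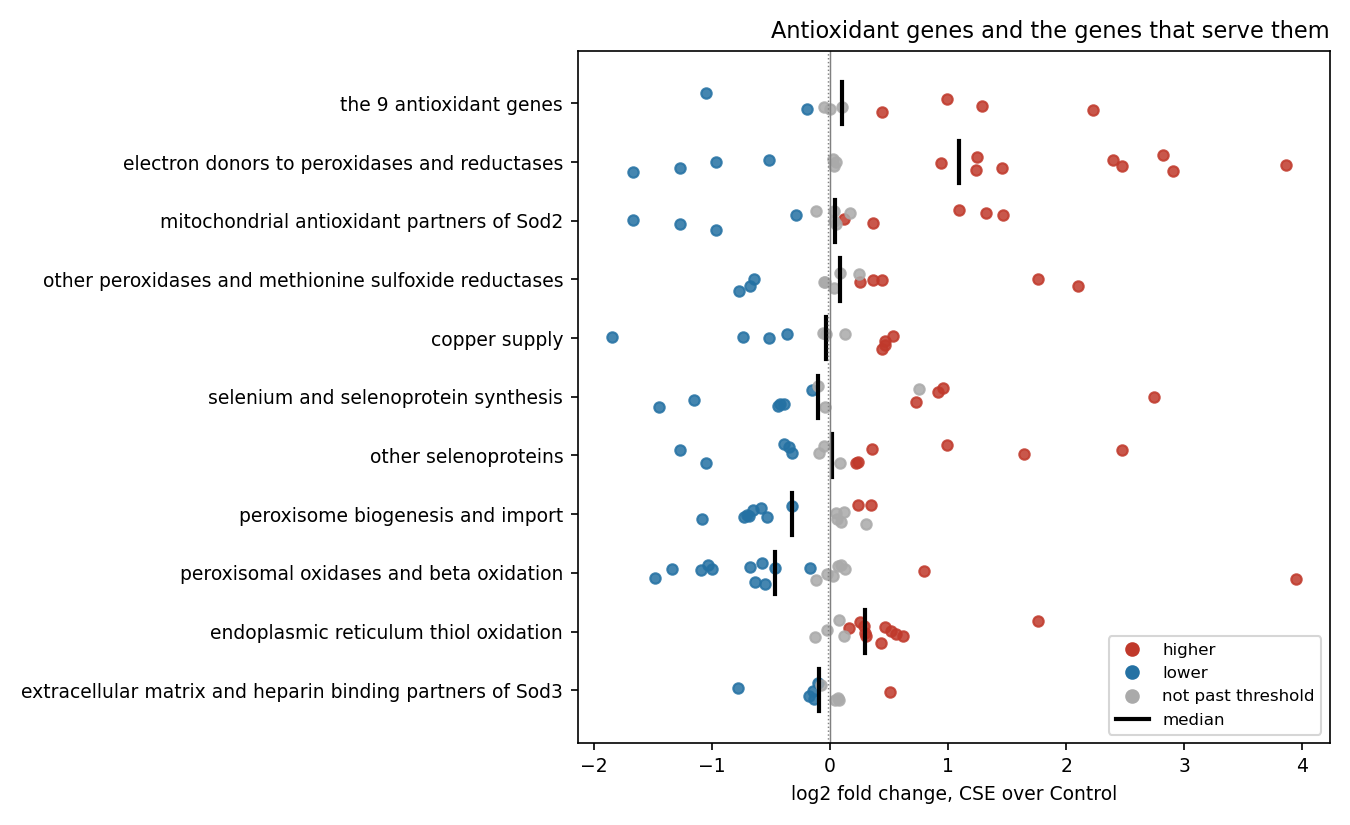
Log2 fold change of CSE over Control of every tested gene in the 9-gene set and in 10 lists of genes that serve it, coloured by call (red higher, blue lower, grey not past the threshold), with a black bar at each list's median and a dotted line at the median of all tested genes. The electron donor list has a median of 1.09, and both peroxisomal lists have medians below 0, at -0.32 and -0.47.

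Electron donors to the peroxidases and reductases had the highest median of the 13 lists, here and under each of the 14 alternatives. Among 16 tested genes 9 were higher, 4 lower and 3 without a call, the median being 1.09 (range 0.90 to 1.12). Gsr, the glutathione reductase gene that recycles the substrate of Gpx1 and Gpx3, rose 7.06-fold from 39.6 ± 2.15 to 279 ± 3.01 CPM. Txn1, the thioredoxin gene whose product reduces MsrA, rose 2.74-fold from 115 ± 13.1 to 316 ± 12.5 CPM. The sulfiredoxin gene Srxn1 was at 3.86 ± 0.06 and the glutathione synthesis gene Gclc at 2.39 ± 0.04. Named after their values were seen, the cytosolic NADPH source genes Idh1 (1.24) and Me1 (1.24) were called higher, whereas the 4 genes called lower were the glutaredoxin gene Glrx (-0.52) and the mitochondrial Idh2, Nnt and Txnrd2.

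The peroxidase and reductase genes outside the set moved in both directions. The 13 tested held 5 higher, 3 lower and 5 without a call (median 0.08, range -0.10 to 0.19), with 5 lower under total counts alone. Prdx1 rose 4.29-fold from 314 ± 5.46 to 1349 ± 94.2 CPM and Prdx6 3.38-fold from 176 ± 4.76 to 596 ± 23.6 CPM. Pxdn, the gene of a matrix peroxidase, was at -0.68 ± 0.04. Of the methionine sulfoxide reductase genes that act on the other stereoisomer from Msra, Msrb3 fell from 335 ± 8.17 to 213.7 ± 5.35 CPM (log2 fold change -0.65 ± 0.04, edgeR adjusted p = 6.0e-10) and Msrb2 from 6.52 ± 0.583 to 3.82 ± 0.114 CPM (-0.77 ± 0.15, edgeR adjusted p = 1.8e-04). Msrb1 was at 56.3 ± 2.61 CPM with CSE and 58.2 ± 4.22 CPM in the Control (edgeR adjusted p = 0.508).

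In the endoplasmic reticulum, where Gpx7 and Gpx8 use peroxide to oxidise protein disulfide isomerases, thiol oxidation genes were higher in 11 of 15 tested, with 0 lower and 4 without a call (edgeR, median 0.29, range 0.10 to 0.32). Under total counts alone 8 were higher and 1 lower (median 0.10). Ero1l (current symbol Ero1a), an oxidase gene whose product makes hydrogen peroxide there, rose 3.38-fold from 94.97 ± 3.01 to 321 ± 10.7 CPM. The disulfide isomerase genes P4hb (0.56 ± 0.04) and Pdia3 (0.51 ± 0.04) and the membrane thioredoxin gene Tmx1 (0.61 ± 0.05) rose. Prdx4, the peroxiredoxin gene of this compartment, is listed at 0 for every library.

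Genes of other enzymes that produce superoxide or hydrogen peroxide were divided, with 9 of 22 lower, 8 higher and 5 without a call (median -0.07, range -0.26 to -0.05). Under total counts alone 13 were lower and 6 higher (median -0.26). Beside Ero1l, the aldehyde oxidase gene Aox1 rose to 9.52 ± 0.617 from 2.96 ± 0.317 CPM (log2 fold change 1.68 ± 0.15). Loxl4, a lysyl oxidase gene, was at -0.80 ± 0.06.

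Known regulators of the members, 16 tested, had 10 genes higher, 2 lower and 4 without a call (median 0.56, range 0.37 to 0.80). Nfe2l2, which encodes NRF2, was at 1.75 ± 0.05, its competitor Bach1 at 2.32 ± 0.07, its inhibitor Keap1 at 1.20 ± 0.07 and the deacetylase gene Sirt1 at 1.64 ± 0.08. Foxo3, whose product is known to activate Sod2 and Cat, rose 1.81-fold from 11.02 ± 1.05 to 19.9 ± 1.45 CPM. Nfkb1, a subunit gene of NF-kappaB, which is known to induce Sod2, was at 76.0 ± 3.24 CPM with CSE and 77.6 ± 2.52 CPM in the Control (edgeR adjusted p = 0.612). Rela, the gene of another NF-kappaB subunit, named after its values were seen, was higher, at 110.9 ± 5.70 against 61.0 ± 2.51 CPM (log2 fold change 0.86 ± 0.06, edgeR adjusted p = 2.8e-10). Ppargc1a, the coactivator gene linked to mitochondrial antioxidant genes, had 13 counts in the 6 libraries together and was not tested.

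The genes whose levels followed Cat and Gpx1 most closely were found by Pearson's correlation of log2 CPM over the 6 libraries, as a description. For Cat they were Ryr3, Uimc1 and Cnbp, each with r of 0.9997 or 0.9998, and 1066 genes had r above 0.99. For Gpx1 they were Eppk1 (r = 0.9993), Pdk2 (r = 0.9987) and Tnrc18 (r = 0.9986), and 223 genes had r above 0.99. These 6 points fall into the 2 groups, so such values largely restate the difference between the groups.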

How the data were processed

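RNA was sequenced from 3 CSE and 3 Control libraries. The authors deposited raw read counts per gene symbol, without normalization. The build Rnor_6.0 and HISAT2 2.0.4 are named, with no role, per the submitters' processing notes. The tool, strand and annotation behind the counts were not given in the sources used here. Columns were matched to samples by title.

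Counts were filtered with filterByExpr, scaled by TMM and fitted with the quasi-likelihood F test of edgeR 4.0.16 (R 4.3.3), with Benjamini-Hochberg adjustment over 13390 genes and a threshold of 0.05. The SE is the log2 fold change divided by the square root of F. Intervals use it with 16.7 degrees of freedom. Alternatives were other scalings and filters, DESeq2 1.42.0, limma-voom 3.58.1, a replicate block and leaving out each library. Ratios used a pseudocount of 0.5. In simulated counts of CSE against Control over 13186 genes, 50 genes per size were changed, in both directions. The recovered share was 54% at 1.25-fold, 78% at 1.5-fold and 100% at 2-fold, and 11 of 177 calls were false. Few genes changed in the simulation, whereas 73.9% of tested genes were called in the data. These shares check the procedure and do not give its power here.

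The members and gene lists were chosen with earlier results of these data known. Named genes are all members, fixed partners, up to 4 genes per list by smallest adjusted p, and the 3 most correlated genes of Cat and Gpx1. Some genes that this rule names are not reported here. Gene lengths per transcript were not used here, so levels of different genes are not compared. RefSeq tables of GRCr8, another build, served for symbols, neighbouring genes and promoter sequences.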

Additional observations from a re-analysis of the deposited data

How the results depend on the processing

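The calls of Sod1, Sod2, Cat, Gpx1, Gpx7 and Gpx8 held in direction and side of the threshold under all 14 alternatives. With upper-quartile factors or total counts, 4 members were called lower in place of 2, since Sod3 and Gpx3 joined them. The sign of Gpx3 turned with RLE factors (0.018) and DESeq2 (0.022), and leaving out 1 library each gave -0.017 to 0.018, turned without CSE replicate 2 (0.011) and CSE replicate 3. Msra turned with upper-quartile scaling (-0.038) and total counts alone (-0.089), and leaving out 1 library each gave -0.11 (without CSE replicate 3) to 0.22. None of these values passed the threshold, and the cause was not tested. Leaving out 1 library each gave between 9544 and 9814 called genes, against 9894. DESeq2 called 9628 genes and limma-voom 9910. Libraries with the same replicate number did not deviate together (correlations of 0.02, -0.02 and 0.01), so the numbers were not taken as pairs. A fit with the replicate block called 9756 genes and changed no member's call. For the 5 ratios, pairing by replicate number leaves the differences unchanged by arithmetic, so it does not test them. The exact sign-flip p was 0.25, the smallest that 3 pairs allow. Depth was lowest for Msra, with 57 to 95 counts per library.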
